A study of Mus musculus with 23 samples.

Results

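Neurotrophins are secreted growth factors that keep neurons alive and adjust their synapses, and they act through Trk receptor tyrosine kinases and the p75 receptor. The 7 genes Bdnf, Ntf3, Ntrk2, Ntrk3, Ngfr, Sort1, and Vgf of this system were followed in the adult mouse brain. They were chosen by gene name, and every probe that carries one of these names and is no control was used, which gave 13 of the 39429 probes and 7 of the 31829 gene names of the array. Ntrk3 has 4 probes, Ntrk2 has 3, Sort1 has 2, and Bdnf, Ntf3, Ngfr, and Vgf have 1 each.

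The brains came from 12 adult male C57BL/6J mice, 4 in each of 3 groups, and each brain was hybridized to 1 one-colour Agilent array. The embryos of all groups were made by in vitro fertilization from C57BL/6J parents on a normal diet, carried by ICR recipient mothers, delivered by caesarean section, nursed by ICR foster mothers, and fed the control diet after weaning. The groups differed in what the recipient mother ate: the control diet (CD, AIN93G), a protein-restricted diet with less casein (PR), or the same PR diet to which folic acid was added (FA). The males had passed through behavioral tests before the whole brain, cerebellum included, was taken, so each value is an average over all brain regions and cell types, and fewer cells of a type cannot be told apart from less RNA per cell.

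The precursor of brain-derived neurotrophic factor is encoded by Bdnf, and that of neurotrophin-3 by Ntf3. TrkB, the receptor of BDNF, is the product of Ntrk2, and TrkC, the receptor of neurotrophin-3, that of Ntrk3. Both receptor genes also make truncated forms that keep the part outside the cell and the membrane anchor but lack the kinase, and such forms are known to bind ligand without kinase signaling. Ngfr encodes p75, which binds all neurotrophins and, together with sortilin from Sort1, their uncleaved precursors. Vgf encodes a precursor of neuropeptides that neurotrophins are known to induce.

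The Ntrk3 probes fall on both sides of this division. Among RefSeq transcripts, the only ones considered here, probes A_52_P500274 and A_55_P2006808 match only the truncated transcript NM_182809. Among the same transcripts, probes A_55_P2056533 and A_66_P118329 match only the full-length transcript NM_008746. On the minus strand of chromosome 7 (build mm9) the truncated probes lie first, at chr7:85447515-85447574 for A_55_P2006808 and 1.61 kb further along the gene, at chr7:85445908-85445967, for A_52_P500274. The full-length probes follow at chr7:85392044-85392103 for A_55_P2056533 and at chr7:85337455-85337514 for A_66_P118329, 53.9 to 110.1 kb beyond the truncated probes. Of the 4 sequences, 3 are printed 5′ to 3′. Capitals mark the stop codon that ends the truncated reading frame in A_55_P2006808 and the codons of the DFG motif, a hallmark of the kinase domain, in A_55_P2056533. A_66_P118329 carries neither mark, lies further along the full-length transcript, and is assigned to that form by its RefSeq match alone.
Ntrk3 A_55_P2006808, truncated: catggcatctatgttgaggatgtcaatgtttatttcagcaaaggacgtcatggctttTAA
Ntrk3 A_55_P2056533, full-length: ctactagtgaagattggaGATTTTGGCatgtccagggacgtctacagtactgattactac
Ntrk3 A_66_P118329, full-length: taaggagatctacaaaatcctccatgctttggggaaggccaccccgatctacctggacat

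The Ntrk2 probes divide in the same way on the plus strand of chromosome 13. A_55_P2006792, at chr13:58979563-58979622, matches the full-length transcript NM_001025074 and the truncated transcript NM_008745, and its sequence is printed because it reads both forms. A_65_P04961, at chr13:59038046-59038105, matches the truncated transcript only, and A_51_P393454, at chr13:59230936-59230995, the full-length transcript only. These matches too were read among RefSeq transcripts alone.
Ntrk2 A_55_P2006792, both forms: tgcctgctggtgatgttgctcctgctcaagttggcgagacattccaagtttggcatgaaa

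All 13 probes were well above background on all 12 arrays and none was saturated. Each diet group was hybridized on a slide of its own with 1 scan, so a slide effect cannot be told apart from a diet effect in what follows. Of 43020 spots, 27068 to 28458 were well above background on the CD arrays, 31266 to 33478 on the PR arrays, and 30408 to 31672 on the FA arrays. Probes of neurons, astrocytes, oligodendrocytes, microglia, and endothelium were well above background on every array, as the label whole brain implies. Values are the deposited normalized intensities on the log2 scale, on which a difference of 1 is a doubling. They show changes of 1 probe between groups and not the amounts of different probes. A probe is said to rise or fall where limma gave an adjusted p under 0.05 over all probes of the array.

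Of the 13 probes, 4 rose and 1 fell in PR against CD, and 3 rose and 3 fell in FA against CD. Those are 5 and 6 of 13, where 30.0% of all probes on the array passed the same limit in PR against CD (13.4% higher, 16.6% lower) and 34.4% in FA against CD (16.4% higher, 18.0% lower). No member passed between FA and PR with limma or with the Tukey test, where 0.614% of all probes did with limma, and 3 members had an unadjusted p under 0.05. With limma, none reached both a 2-fold change and an adjusted p under 0.0001. Of all probes, 0.0862% did so in PR and 0.195% in FA against CD. The study's methods set these limits on p values of the Tukey test instead. The groups did not overlap for 5 members in PR against CD and for 5 in FA against CD, beside 33.2% and 36.9% of all probes, and for 3 in FA against PR, beside 11.1%. The median difference of the 13 probes was -0.03 in PR and -0.02 in FA, and that of all probes was -0.02 and -0.01. The PR and FA comparisons share the 4 CD arrays.

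**Figure D1:**
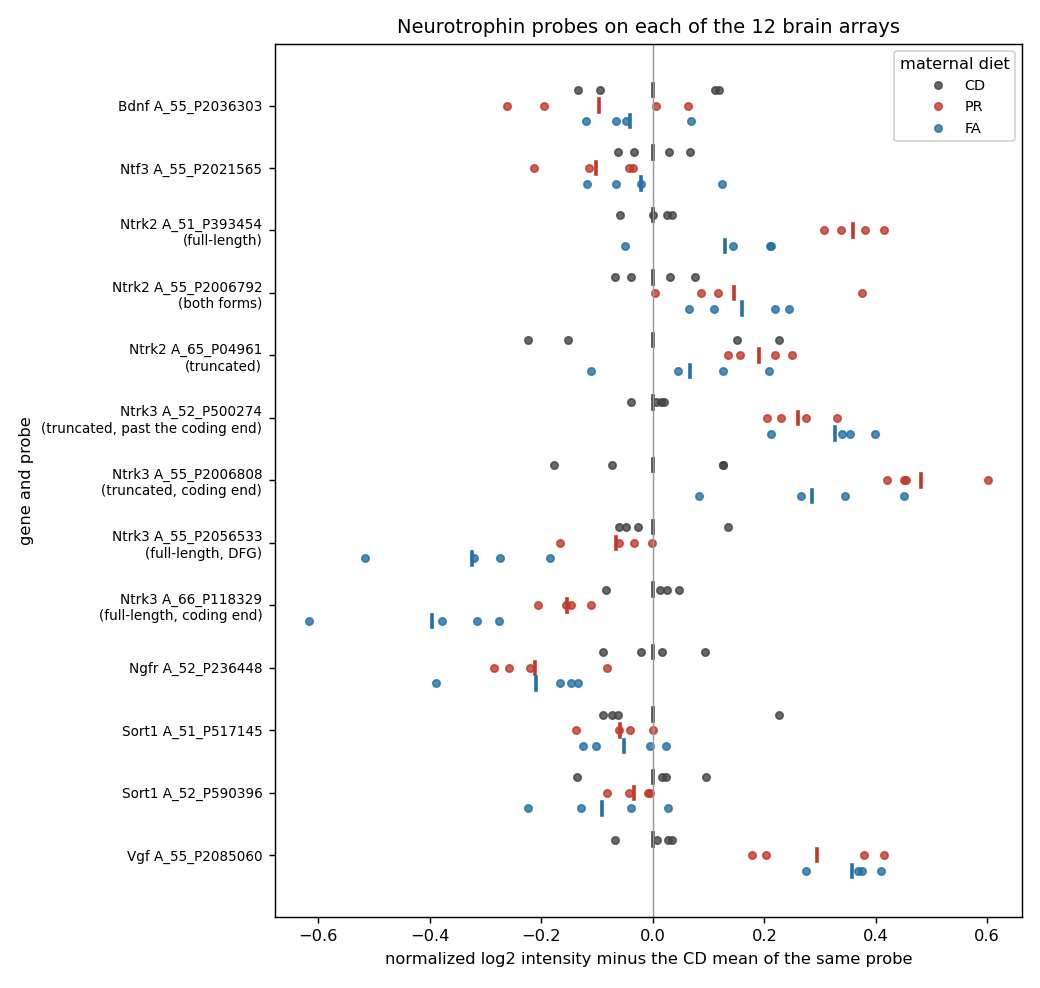
Normalized log2 intensity of each of the 13 probes minus the CD mean of that probe, with 1 point per array, a bar at each group mean, and 4 arrays per maternal diet. The PR and FA points lie to the right of the CD points for both truncated Ntrk3 probes and Vgf, except for 1 FA array of A_55_P2006808, and the FA points lie to the left for both full-length Ntrk3 probes and Ngfr.

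The clearest pattern was in Ntrk3, the TrkC receptor gene, where probes of the truncated transcript were higher in both diet groups and probes of the full-length, kinase-bearing transcript were lower in FA. The truncated probe A_52_P500274 read 11.98, 12.03, 12.04, and 12.02 on the CD arrays, 12.29, 12.35, 12.25, and 12.22 on the PR arrays, and 12.37, 12.42, 12.23, and 12.36 on the FA arrays. Every PR and FA array was above every CD array. It rose by 0.26 ± 0.05 (SE, n = 4 per group) in PR, or 19.7% (adjusted p = 0.0027, limma), and by 0.33 ± 0.05 in FA, or 25.4% (adjusted p = 0.00062).

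The truncated probe A_55_P2006808, which holds the stop codon printed above, read 11.03, 11.03, 10.83, and 10.73 in CD, 11.36, 11.51, 11.32, and 11.35 in PR, and 11.25, 11.35, 10.99, and 11.17 in FA. PR lay above CD without overlap, whereas the lowest FA array fell among the CD arrays. The rise was 0.48 ± 0.09 (SE, n = 4 per group) in PR, or 39.7% (adjusted p = 0.0033, limma), and 0.29 ± 0.09 in FA, or 21.9% (adjusted p = 0.035). The FA call was lost with the Tukey test (adjusted p = 0.11), when only FA and CD were fitted (adjusted p = 0.072), and when CD replicate 3 or 4 or FA replicate 1, 2, or 4 was left out (adjusted p 0.063 to 0.089).

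The full-length probe with the DFG codons, A_55_P2056533, read 10.69, 10.85, 10.66, and 10.67 in CD, 10.72, 10.66, 10.55, and 10.68 in PR, and 10.44, 10.40, 10.20, and 10.53 in FA. All FA arrays were below all CD and all PR arrays. It fell by 0.32 ± 0.07 (SE, n = 4 per group) in FA against CD, and its level fell by 20.1% (adjusted p = 0.0073, limma). In PR the difference from CD was -0.07, with a 95% confidence interval from -0.23 to 0.10 (adjusted p = 0.54).

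The second full-length probe, A_66_P118329, read 13.35, 13.33, 13.22, and 13.31 in CD, 13.15, 13.19, 13.10, and 13.15 in PR, and 12.99, 12.92, 12.68, and 13.03 in FA. The 3 groups did not overlap at all, with CD highest and FA lowest. The probe fell by 0.40 ± 0.07 (SE, n = 4 per group) in FA against CD, and its level fell by 24.0% (adjusted p = 0.0017, limma). The PR difference of -0.15 missed the limit (95% confidence interval -0.31 to 0.004, adjusted p = 0.12), and passed it when each array was scaled to its 75th percentile over all probes (-0.23, adjusted p = 0.028), when only PR and CD were fitted (adjusted p = 0.045), and without FA replicate 3 (adjusted p = 0.028). Between FA and PR the difference was -0.24 (adjusted p = 0.15).

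**Figure D2:**
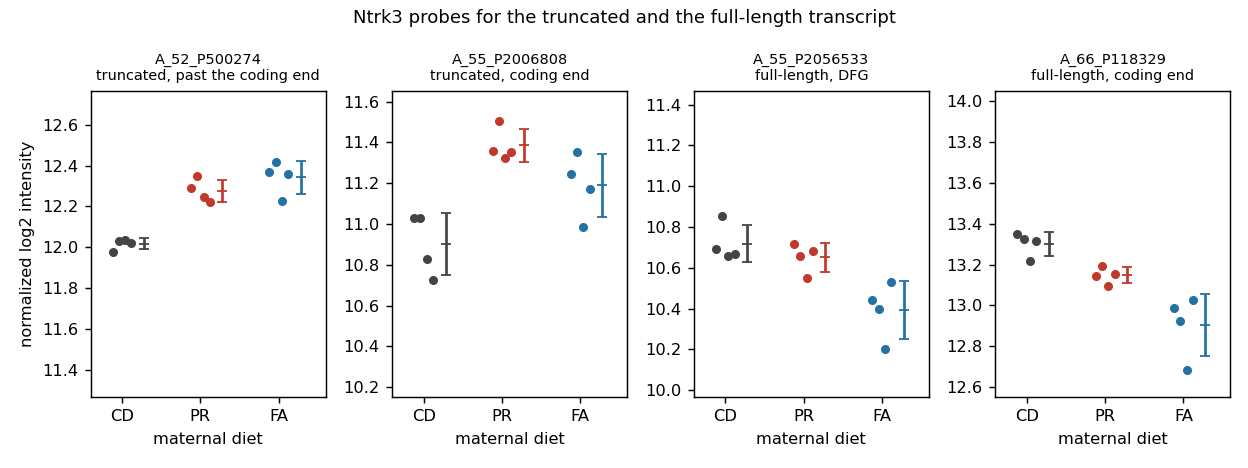
Normalized log2 intensity of the 4 Ntrk3 probes by maternal diet, with 1 point per array and the group mean ± SD beside the points (n = 4). The vertical axes have the same length of 1.5 log2 units around the CD mean. The truncated probes on the left go up from CD to PR, and the full-length probes on the right go down from CD to FA.

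Because probes of both forms sit on the same array, their difference can be taken within each brain, where a shift common to the whole array drops out. All 4 possible truncated-minus-full-length differences were higher in PR and in FA than in CD, and neither group overlapped CD. They combine the same 4 probes on the same arrays, so they are not independent of each other. How many pairs of probes over the whole array did not overlap was not counted, so the lack of overlap cannot be called unusual. Of single probes, 33.2% did not overlap in PR against CD and 36.9% in FA against CD. For A_55_P2006808 minus A_55_P2056533, which were about equally bright in CD, the within-array difference was 0.34, 0.18, 0.17, and 0.06 in CD, 0.64, 0.85, 0.77, and 0.67 in PR, and 0.80, 0.96, 0.79, and 0.64 in FA. It rose by 0.55 ± 0.08 (SE) in PR (adjusted p = 0.00054, limma over all pairs of probes of a gene) and by 0.61 ± 0.08 in FA (adjusted p = 0.00022).

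The largest PR change of the 4 was for A_55_P2006808 minus A_66_P118329, at 0.64 ± 0.08 (SE, adjusted p = 0.00021, limma), and the smallest for A_52_P500274 minus A_55_P2056533, at 0.33 ± 0.07 (adjusted p = 0.0034). In FA the 4 changes lay between 0.61 and 0.72 (adjusted p 3.0e-05 to 0.00022). Both differences that start from A_52_P500274 were also higher in FA than in PR, by 0.32 ± 0.07 (SE) against A_55_P2056533 (adjusted p = 0.041, limma) and by 0.31 ± 0.06 against A_66_P118329 (adjusted p = 0.035). Both FA against PR calls were close to the limit and were lost without any 1 PR array and without FA replicate 1, 2, or 3, and the first also without CD replicate 3 and with the normexp background correction (adjusted p 0.054 to 0.12 for the first and 0.057 to 0.11 for the second). The differences that start from A_55_P2006808 were 0.06 and 0.05 higher in FA than in PR (adjusted p 0.79 and 0.84).

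The calls against CD in these 4 differences kept an adjusted p under 0.05 with the replicate number as a block, without normalization between arrays, with the normexp background correction, with the GC trend of each array removed, and without any 1 array. The 4 probes have a GC content of 38.3% for A_55_P2006808, 43.3% for A_52_P500274 and A_55_P2056533, and 50% for A_66_P118329, beside a median of 41.7% over the array.

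**Figure D3:**
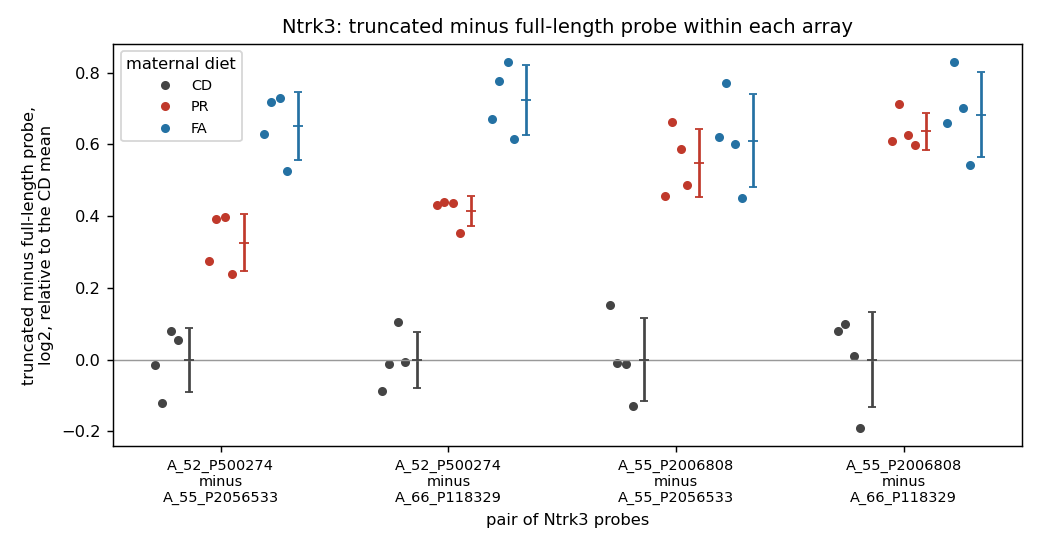
Truncated minus full-length Ntrk3 probe within each array, in log2 units relative to the CD mean of that pair, with 1 point per array and the group mean ± SD beside the points (n = 4 per diet). In all 4 pairs the PR and FA arrays lie above every CD array.

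Probes of 1 gene often moved apart on these arrays. Over 5807 pairs of probes from 4052 genes, 37.6% differed in PR against CD at an adjusted p under 0.05, 41.1% in FA against CD, and 1.29% in FA against PR. The median size of such a difference was 0.19 in PR and 0.20 in FA. The 4 Ntrk3 differences were larger than 71.6% to 93.5% of the pairs in PR and larger than 91.0% to 95.1% in FA, which places them in the upper part of a wide range.

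Within each form the Ntrk3 probes were compared as well. The full-length probes did not part beyond the limit, with a change in their difference from each other of 0.09 in PR (adjusted p = 0.22, limma) and 0.07 in FA (adjusted p = 0.31), although the PR value was 0.16 with an adjusted p of 0.038 without normalization between arrays. The truncated probes did not move by equal amounts in PR, where A_52_P500274 minus A_55_P2006808 was lower by 0.22 ± 0.08 (SE, adjusted p = 0.042, limma). That call was lost without any 1 PR array, without CD replicate 3 or 4, without FA replicate 1 or 4, and with the normexp correction (adjusted p 0.054 to 0.13).

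**Figure D4:**
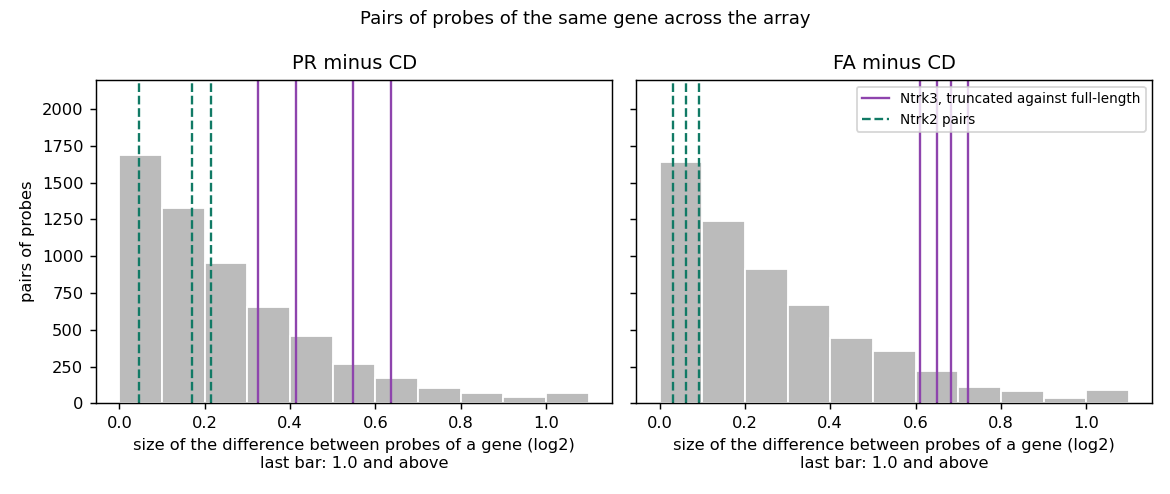
Size of the PR minus CD and FA minus CD change of the difference between probes of the same gene, in log2 units, as the number of pairs in bins of 0.1 over 5807 pairs. Solid lines mark the 4 Ntrk3 differences between truncated and full-length probes (0.33 to 0.64 in PR and 0.61 to 0.72 in FA), and dashed lines the 3 Ntrk2 pairs (0.05 to 0.21 in PR).

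In Ntrk2, the TrkB receptor gene, no such split passed the limit, and the full-length probe rose in PR. A_51_P393454, spotted 10 times on each array, read 12.94, 12.93, 12.91, and 12.85 in CD, 13.32, 13.25, 13.22, and 13.29 in PR, and 13.12, 13.05, 12.86, and 13.12 in FA. The PR arrays were above all others. The rise in PR was 0.36 ± 0.06 (SE, n = 4 per group), or 28.3% (adjusted p = 0.0016, limma). In FA the difference from CD was 0.13 (95% confidence interval -0.01 to 0.27, adjusted p = 0.13), which became 0.19 with an adjusted p of 0.012 without FA replicate 3. The FA arrays were lower than the PR arrays by 0.23 with no overlap, and the adjusted p was 0.12. The 10 spots of an array had an SD of 0.019 to 0.054, which is technical spread only.

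The probe for both forms, A_55_P2006792, lay between 13.87 and 14.01 in CD, 13.94 and 14.31 in PR, and 14.00 and 14.18 in FA. Its differences of 0.15 in PR and 0.16 in FA did not pass (adjusted p 0.19 and 0.14). The truncated probe, A_65_P04961, lay between 11.84 and 12.29 in CD, 12.20 and 12.32 in PR, and 11.95 and 12.27 in FA, and did not pass either (0.19, adjusted p = 0.20, and 0.07, adjusted p = 0.66). Its CD arrays spread more (SD 0.22) than those of any other member.

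Taken within each array, full-length minus truncated Ntrk2 changed by 0.17 ± 0.13 (SE) in PR (adjusted p = 0.30, limma), and full-length minus the probe for both forms by 0.21 ± 0.10 (adjusted p = 0.10). The latter passed with the normexp correction (0.25, adjusted p = 0.033) and without PR replicate 4 (0.28, adjusted p = 0.045). No Ntrk2 pair passed in FA. Across the 12 arrays, after the group means were removed, full-length Ntrk2 varied with full-length Ntrk3, with a Pearson r of 0.86 for A_55_P2056533 and 0.85 for A_66_P118329. Its r was 0.56 and 0.61 with the truncated Ntrk3 probes A_52_P500274 and A_55_P2006808, 0.63 with Bdnf, and -0.11 with the probe for both Ntrk2 forms. FA replicate 3 was the lowest FA array on A_51_P393454 and on both full-length Ntrk3 probes, and it enters these r values. Those correlations describe 12 arrays, of which the 4 of a group share a slide.

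Astrocytes are known to carry truncated TrkB and TrkC, so their markers are given beside the receptor results. Among 11 probes of 6 astrocyte genes, 2 were lower and 3 higher in PR, and 3 lower and 2 higher in FA. Of all probes on the array, 30.0% passed in PR and 34.4% in FA. Gfap, the intermediate filament of astrocytes, rose on 2 of 3 probes in both groups, by 0.43 on A_52_P52303 in PR and 0.32 in FA. Gja1 rose by 0.30 in PR. Aqp4, their water channel, fell on A_55_P2031939 by 0.21 in PR and 0.35 in FA, and on A_55_P2000369 by 0.44 in FA. Slc1a2 fell on A_55_P2392625 by 0.47 in PR and 0.63 in FA. The summed level of the list ranged from 15.95 to 16.03 in CD, 16.03 to 16.09 in PR, and 15.96 to 16.05 in FA. A summed level of any list is weighted toward its brightest probes, here those of Slc1a3, Aldh1l1, and Gfap, and can hide changes of dimmer ones. Among 5 neuron probes, Syn1 and Nefl rose in both groups and Snap25 fell in PR, and the summed level ranged from 17.81 to 17.95 in CD, 17.92 to 17.96 in PR, and 17.87 to 17.98 in FA. The part of either cell type in the receptor results was not tested.

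Neither ligand gene moved beyond its spread. Bdnf probe A_55_P2036303, at chr2:109566961-109567020 on the plus strand, matches 4 RefSeq transcripts of the gene, so it reads their sum. It read 10.74, 10.73, 10.52, and 10.48 in CD, 10.68, 10.42, 10.36, and 10.62 in PR, and 10.55, 10.57, 10.50, and 10.69 in FA. The groups overlapped throughout. The difference was -0.10 in PR (95% confidence interval -0.30 to 0.10, adjusted p = 0.44, limma) and -0.04 in FA (-0.24 to 0.16, adjusted p = 0.75).

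Ntf3 probe A_55_P2021565, at chr6:126051431-126051490 on the minus strand, lay between 9.21 and 9.34 in CD, 9.06 and 9.23 in PR, and 9.15 and 9.39 in FA. It differed by -0.10 in PR (95% confidence interval -0.24 to 0.04, adjusted p = 0.25, limma) and by -0.02 in FA (-0.16 to 0.12, adjusted p = 0.83).

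Vgf, the neuropeptide precursor, rose in both groups. Its probe A_55_P2085060, at chr5:137509153-137509212 on the plus strand, read 15.32, 15.34, 15.34, and 15.24 in CD, 15.73, 15.51, 15.49, and 15.69 in PR, and 15.68, 15.59, 15.68, and 15.72 in FA. Every PR and FA array was above every CD array. The rise was 0.29 ± 0.06 (SE, n = 4 per group) in PR, or 22.6% (adjusted p = 0.0051, limma), and 0.36 ± 0.06 in FA, or 28.1% (adjusted p = 0.0014).

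The size of the Vgf rise depended on the scaling. With each array scaled to its 75th percentile over all probes it was 0.13 in PR, which did not pass (adjusted p = 0.089), and 0.22 in FA (adjusted p = 0.011), and over the probes well above background it was 0.17 in PR (adjusted p = 0.044). Pituitary tissue makes much VGF, and on these arrays Gh, the growth hormone gene, had a mean of 7.94 in CD, where it was well above background on 4 arrays, 2.61 in PR, where it was so on none, and 3.32 in FA, where it was so on 1. Prl, the prolactin gene, ran likewise at 7.90, 3.35, and 3.66, with the same numbers of arrays. The other pituitary hormone genes Pomc, Tshb, Lhb, and Cga did not pass in either comparison. The summed level of the 9 pituitary probes ranged from 14.11 to 14.50 in CD, 13.77 to 14.63 in PR, and 13.98 to 14.20 in FA, but it rests almost wholly on Pou1f1 probe A_55_P2017066 (means 14.17, 14.02, and 14.03) and does not follow Gh and Prl. Vgf was higher in the groups in which Gh and Prl were lower, and the part of pituitary tissue in the Vgf values was not tested.

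Ngfr, the p75 receptor gene, fell slightly in both groups. Probe A_52_P236448, at chr11:95430211-95430270 on the minus strand and spotted 10 times, read 10.01, 9.91, 9.97, and 10.09 in CD, 9.71, 9.77, 9.91, and 9.74 in PR, and 9.83, 9.61, 9.86, and 9.85 in FA. FA lay below CD without overlap, and the highest PR array met the lowest CD array. The fall was by 0.21 ± 0.07 (SE, n = 4 per group) in PR (adjusted p = 0.044, limma) and by 0.21 ± 0.07 in FA (adjusted p = 0.041), or by 13.7% and 13.5%. The spots of an array had an SD of 0.033 to 0.076.

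The Ngfr calls were the least firm of the members. The adjusted p was 0.11 in PR and 0.10 in FA with the Tukey test, and 0.094 and 0.069 with scaling to the 75th percentile of the probes well above background. It was 0.063 in FA when only FA and CD were fitted. Leaving out 1 array raised it above 0.05 for 9 of 12 arrays in PR and 8 of 12 in FA, to at most 0.10 and 0.093. In the adult brain p75 is known from cholinergic neurons of the basal forebrain. Of 8 probes of 6 genes of these neurons, Lhx8 fell by 0.36 in PR and 1 of the 2 Slc5a7 probes rose by 0.33. None of their probes passed in FA, where 34.4% of all probes on the array did, beside 30.0% in PR. Their summed level ranged from 11.64 to 11.72 in CD, 11.63 to 11.84 in PR, and 11.39 to 11.71 in FA. Outside the brain p75 is found in Schwann cells, of whose 5 probes 2 passed in both groups, among them Prx, which was higher by 1.19 in PR. The part of these cells in the Ngfr values was not tested.

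Sort1, the sortilin gene, did not move beyond its spread with either probe. A_51_P517145 matches 60 bases that are split by an intron, at chr3:108157150-108159198, and lay between 8.44 and 8.76 in CD, 8.40 and 8.53 in PR, and 8.41 and 8.56 in FA. A_52_P590396, at chr3:108164349-108164408, lay between 12.76 and 12.99, 12.81 and 12.89, and 12.67 and 12.92. The differences from CD were -0.06 and -0.03 in PR and -0.05 and -0.09 in FA, with adjusted p values of 0.31 to 0.72 (limma).

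**Figure D5:**
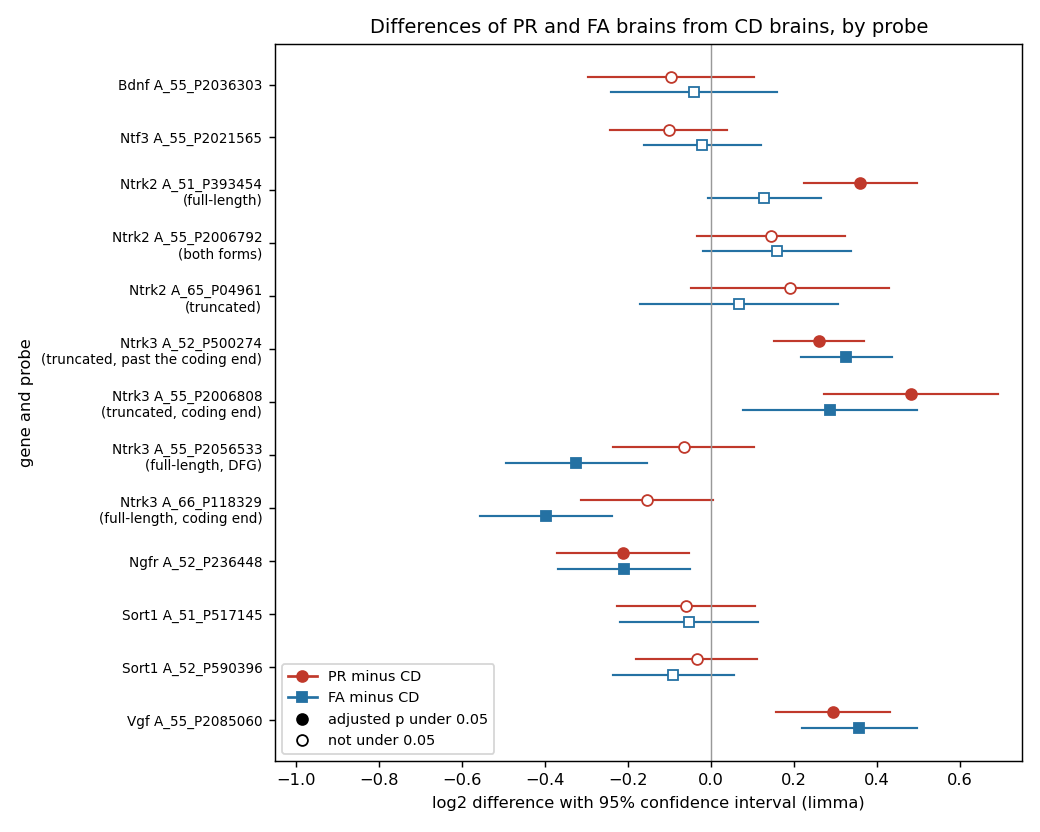
Log2 difference from CD of each probe with its 95% confidence interval, from the limma SE and the residual degrees of freedom, for PR (circles) and FA (squares), n = 4 per group. Filled symbols have an adjusted p under 0.05. The intervals of both Bdnf and Ntf3 differences and of all Sort1 differences cross 0, and those of both truncated Ntrk3 probes and Vgf lie to the right of it.

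The rest of the pathway was read from 8 lists with 133 genes and 196 probes. In PR 39 of these probes rose and 19 fell, and in FA 31 rose and 29 fell, with median differences of 0.03 and 0.01. Those are 29.6% and 30.6% of the probes, beside 30.0% and 34.4% of the whole array. In FA against PR 4 probes were lower (beside 0.386% of all probes) and none higher, with limma, and 25 had an unadjusted p under 0.05. The 4 were 1 probe each of Irs2, Kidins220, Cbl, and Hap1, and the count was 0 with the replicate number as a block, 2 when only FA and PR were fitted, and 1 to 3 when 1 array was left out. The FA against PR calls of these 4 genes given with their lists were thus all lost under the block.

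Among other ligands and the proteases that cut the precursors, 2 of 14 probes rose and 2 fell in PR, and 1 rose and 4 fell in FA (median -0.06 in both). Pcsk6, a precursor-cleaving protease, fell by 0.20 in FA (adjusted p = 0.022, limma), and Plat, which makes plasmin that can cleave proBDNF, rose by 0.19 in PR (adjusted p = 0.037). Furin, Pcsk7, and Serpini1 did not pass in either group. Ntf5, the gene of neurotrophin-4, was well above background on 9 of 12 arrays and did not pass. Mmp9, a matrix protease, rose by 0.32 in PR and 0.39 in FA and was above background on 11 arrays. Mmp3 and Pcsk5 A_55_P2167274, counted among the probes that fell, were well above background on no array, and Plg on 3.

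Among other receptors and coreceptors, 4 of 13 probes rose and 1 fell in PR, and 1 rose and 3 fell in FA (median 0.01 and -0.03). Sorl1, a relative of sortilin that sorts TrkB, fell in FA on both probes, by 0.37 ± 0.08 (SE) on A_66_P123824 (adjusted p = 0.0046, limma) and by 0.40 ± 0.10 on A_55_P2151609 (adjusted p = 0.012). Its PR differences were -0.16 and -0.12. The 2 probes of Sorcs2, another relative of sortilin and a partner of p75, went opposite ways: A_51_P230287 rose by 0.28 in PR and 0.33 in FA, and A_55_P2042151 fell by 0.52 and 0.33. The PR fall of Sorcs2 A_55_P2042151 depended on the processing, at 0.24 and 0.28 with the scalings to the 75th percentile and 0.15 with the normexp correction, each past the limit. Nradd, a p75 homolog, rose by 0.40 in PR (adjusted p = 0.013), or by 0.21 with normexp (adjusted p = 0.031), as did Rtn4r, a Nogo receptor that pairs with p75, by 0.32 (adjusted p = 0.024), and 1 of the 2 Sorcs1 probes, by 0.29. Lingo1, Sorcs3, and Tnfrsf19 did not pass in either group.

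Of 45 probes for adaptors that bind active Trk receptors or p75, 12 rose and 4 fell in PR, and 11 rose and 6 fell in FA. Kidins220, a scaffold that Trk receptors phosphorylate, showed probes in opposite directions, A_55_P2082470 with a rise of 0.36 in PR and 0.39 in FA, and A_55_P2082478 with a fall of 0.31 and 0.85. The latter was also lower in FA than in PR, by 0.54 (adjusted p = 0.036, limma). Crk rose by 0.32 in PR and Sh2b1 by 0.36 in FA, and Irs1 fell on A_52_P175242 by 0.32 in PR and 0.39 in FA (each adjusted p at most 0.0049). Irs2 was lower in FA than in PR by 0.41 (adjusted p = 0.049).

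Of 52 probes for the kinases and effectors downstream, 13 rose and 6 fell in PR, and 11 rose and 9 fell in FA. Map2k1, the MEK1 kinase of the ERK cascade, rose by 0.70 ± 0.08 (SE) in PR and by 1.03 ± 0.08 in FA (adjusted p = 0.00017 and 5.4e-05, limma). Gsk3b, a kinase that AKT holds down, fell on A_55_P1981415 by 0.68 ± 0.09 and 0.77 ± 0.09 (adjusted p = 0.0005 and 0.0002). Pik3ca, a catalytic subunit of PI3 kinase, rose by 0.60 in PR, and Map2k5 by 0.40 in FA, or by 0.21 with normexp (adjusted p = 0.0020).

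Of 22 probes for regulators of Bdnf transcription, 4 rose and none fell in PR, and 2 rose and 1 fell in FA. Hdac2, a histone deacetylase, rose by 0.55 ± 0.08 (SE) in PR and 0.50 ± 0.08 in FA (adjusted p = 0.00067 and 0.00097, limma), and by 0.28 and 0.27 with the normexp correction (adjusted p = 0.0021 and 0.0016). Ppargc1a rose by 0.35 and Bhlhe40 by 0.23 in PR, and Rest, a repressor of neuronal genes, fell by 0.23 in FA (adjusted p = 0.046), a call lost with normexp (-0.11, adjusted p = 0.17) and with scaling over the probes well above background (adjusted p = 0.088). Creb1, a transcription factor that binds Bdnf promoters, was -0.25 in FA and just missed the limit on A_52_P517730 (adjusted p = 0.054).

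Among genes that BDNF or neuronal activity induces, 1 of 21 probes rose and 4 fell in PR, and 2 rose and 4 fell in FA. Nrn1, the gene of neuritin, rose by 0.33 in PR and 0.38 in FA (adjusted p = 0.013 and 0.0055, limma), and Nptx2, neuronal pentraxin 2, by 0.63 in FA, or by 0.41 with normexp (adjusted p = 0.023). Egr2 fell by 0.72 and 0.84, and Nr4a1 by 0.48 in PR.

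Vgf belongs to a family of secretory granule proteins, of which 1 of 15 other probes rose in PR, 1 in FA, and none fell. The probe was A_55_P2152248 of Cpe, the carboxypeptidase that trims neuropeptides, at 0.29 in PR and 0.43 in FA (adjusted p = 0.009 and 0.00088, limma), and at 0.19 in PR with scaling to the 75th percentile over all probes (adjusted p = 0.041). The other 2 Cpe probes did not pass. Chga, Chgb, Scg2, Scg3, and Scg5, the granins and their relatives, differed by 0.02 to 0.15 and did not pass (adjusted p 0.16 to 0.78).

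Of 14 probes for proteins that carry Bdnf or Trk receptors, 2 rose and 2 fell in each comparison with CD. Cbl, a ubiquitin ligase of active receptors, rose by 0.74 ± 0.08 (SE) in PR (adjusted p = 0.00016, limma), was -0.03 in FA, and was lower in FA than in PR by 0.77 (adjusted p = 0.011). Hap1, a partner of huntingtin in vesicle transport, fell by 0.56 on A_55_P2058726 in FA (adjusted p = 9.7e-05) and rose by 0.25 on A_51_P516728 (adjusted p = 0.048). Rab11a, of recycling endosomes, rose by 0.22 in PR and 0.26 in FA, Arf6 fell by 0.28 in PR, and Nedd4l by 0.34 in FA.

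For the brightest probe of each gene, the genes whose deviations from the group means were most alike were sought among 23753 probes well above background, as a description over 12 arrays. The 3 genes named for each have the highest of all those r values. High values were bound to appear by this selection, and none was tested. For Bdnf the genes were Lrrtm3 (r = 0.957), Srf (0.936), and Chst1 (0.924). For Ntf3 they were Hdgfrp3 (0.990), Prss12 (0.979), and an unnamed transcript (0.970). For Ntrk2 they were Srrt (0.952), Dap3 (0.938), and Dio2 (0.912), and for Ntrk3 they were Tet3 (0.908), Gm4704 (0.906), and Sorl1 (0.904). The Ntrk3 probe in question is full-length A_66_P118329, and Sorl1 fell with it in FA, as given above. For Ngfr they were Ucma (0.925), Hoxb2 (0.919), and Hoxd4 (0.916), both Hox genes being expressed in the hindbrain. For Sort1 they were Cpsf2 (0.976), Rtn1 (0.964), and Ncoa1 (0.959), and for Vgf they were Mef2d (0.956), an unnamed transcript (0.948), and Mia3 (0.934).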

How the data were processed

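Gene expression was measured on one-colour Agilent whole mouse genome arrays in whole brains of 12 mice, 1 array per mouse and 4 mice per maternal diet. Spot intensities were extracted by the authors with Agilent Feature Extraction 11.0.1.1, and the intensity per probe they deposited is the processed signal after qspline normalization between arrays, repeated spots of a probe being joined to 1 value. Those deposited values were set on the log2 scale here. Gene names, transcript accessions, and mm9 positions of probes are those of the array files, and the scan files also gave the flags for background and saturation.

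All 39429 non-control probes were fitted with limma 3.58.1 in R 4.3.3, with a mean for each of the 3 groups and two-sided tests adjusted by Benjamini-Hochberg over all probes of a comparison. A call is an adjusted p under 0.05. Confidence intervals use the limma SE with the residual degrees of freedom alone, so they are somewhat wider than the limma p values imply. Differences between probes of 1 gene were taken within each array, for probes well above background on all 12 arrays, fitted with limma, and adjusted over all 5807 pairs. Samples were grouped by the diet in their labels, and each is a separate mouse. The diets were given to the recipient mothers, and the sample titles do not name the recipient or foster mother. Brains of a group may thus be littermates, and the group sizes count mice and not mothers. The scripts were tested on simulated data.

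The members and the lists of pathway and marker genes were chosen with earlier results of these data known. From each pathway list the text names the genes with the smallest p in each comparison with CD, 3 per comparison, among probes well above background on every array, the genes of the lists of other ligands and other receptors, and the 3 genes most like each member. Some genes that the rule picked are not reported here. The genes that differed between FA and PR were added after their values were seen.

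Alternatives were scaling to the 75th percentile (over all probes or those well above background), quantile normalization, normexp background correction, dropping outlier spots or dim probes, the replicate number as a block, a trended and robust variance, only the groups compared, the Tukey test of the study's methods, and leaving out each array. For differences within an array, values without normalization were also used. Removal of the GC trend of each array was added after the data were seen. The methylation arrays of the series were not analysed here. The number of arrays limits the precision.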

Additional observations from a re-analysis of the deposited data

Results flagged for a closer look

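Of the member values, 2 stood far from the other arrays of their group, by Dixon's test among 39 groups of 4 arrays, of which chance gives about 1 in 20. For Ngfr, FA replicate 2 read 9.61 where the other FA arrays read 9.83 to 9.86, and without it the FA difference from CD was -0.15 (adjusted p = 0.090, limma). For Sort1 probe A_51_P517145, CD replicate 2 read 8.76 where the other CD arrays read 8.44 to 8.47, and without it the PR difference from CD was 0.02 and the FA difference 0.02.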

How the results depend on the processing

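The Ntrk3 differences between truncated and full-length probes kept their direction and an adjusted p under 0.05 against CD in every alternative run, as did the rise of full-length Ntrk2 in PR, the rise of the truncated probe A_52_P500274, and the FA rise of Vgf. The number of members that fell in PR was 1, and was 2 with scaling to the 75th percentile over all probes or with only PR and CD fitted, 0 with scaling over the probes well above background or with the Tukey test, and 0 to 1 without single arrays. The number that rose in PR was 4 without any 1 array and 3 to 4 in other settings. In FA the number that fell was 2 to 3 and the number that rose 2 to 4 without single arrays. The causes were not tested.

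Of the pathway probes, 19 fell in PR, and 12 to 26 did without single arrays (12 without PR replicate 3), 39 rose, and 25 to 38 did (25 without CD replicate 1). In FA 29 fell, and 18 without CD replicate 1 or FA replicate 1 and 19 without FA replicate 3. Among the pathway probes that the naming rule picked, leaving out 1 array ended the PR call of Plat for 8 of the 12 arrays, Egr2 for 6, Arf6, Bhlhe40, and Nr4a1 for 4 each, and Rtn4r for 3, and the FA call of Rest for 8, Pcsk6 for 3, and Nptx2 for 2. In FA against PR 4 fell, and 2 with only those groups fitted, 0 with the replicate block, and 1 to 3 without single arrays. With the normexp correction 44.2% of the calls in PR and 43.2% in FA were lower, where the share was 55.3% and 52.4% with the deposited values, and with the 75th percentile 83.5% of the calls in FA against PR were lower, beside 62.8%. The median of all probes stayed within 0.063 of 0 in every scaling.

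Same-numbered arrays had correlations of -0.063 to 0.196 between their deviations from the group means. Differently numbered arrays were not compared, so whether the replicate numbers pair the arrays was not settled. With the replicate number as a block the member counts were the same (4 rose and 1 fell in PR, 3 and 3 in FA). The block ended the FA against PR call of A_52_P500274 minus A_55_P2056533 (0.32, adjusted p = 0.054) and the calls of Rtn4r (0.32, adjusted p = 0.056), Plat (0.19, adjusted p = 0.058), Egr2 (-0.72, adjusted p = 0.056), and Nr4a1 (-0.48, adjusted p = 0.063) in PR and Rest (-0.23, adjusted p = 0.077) in FA, and brought 1 of Pcsk2 in FA (-0.56, adjusted p = 0.028).

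Signs turned only where neither setting gave a call. With scaling over the probes well above background, Sort1 A_51_P517145 was 0.0084 in PR against CD, Ntf3 0.020 in FA against CD, and Ngfr -0.014 and Sort1 A_51_P517145 -0.022 in FA against PR, where the 75th percentile over all probes gave -0.011 and -0.020. With normexp, Sort1 A_52_P590396 was 0.028 in PR against CD, and Ntrk2 A_55_P2006792 -0.0081 and Sort1 A_51_P517145 -0.013 in FA against PR. With normexp the FA against CD differences of pairs were 0.042 for Ntrk2 A_51_P393454 minus A_55_P2006792 (0.0067 without normalization), -0.0092 for A_55_P2006792 minus A_65_P04961, and -0.038 for Sort1, and the full-length Ntrk3 pair was 0.045 in FA against PR. Without normalization the Sort1 pair was 0.063 in PR against CD. Quantile normalization gave Ngfr -0.00021 in FA against PR. Removal of the GC trend gave Sort1 A_52_P590396 0.021 in PR against CD, the Sort1 pair -0.026 in FA against CD, and Ngfr -0.0020 and Sort1 A_51_P517145 -1.21e-05 in FA against PR.

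Without single arrays, signs turned within these ranges. In PR against CD they were -0.090 to 0.016 for Sort1 A_51_P517145, -0.087 to 0.043 for the Sort1 pair, and -0.11 to 0.017 for Ntrk2 A_55_P2006792 minus A_65_P04961. In FA against CD they were -0.069 to 0.012 for Ntf3, -0.0077 to 0.14 for Ntrk2 A_65_P04961, -0.082 to 0.023 for Sort1 A_51_P517145, -0.023 to 0.11 for the Sort1 pair, -0.076 to 0.057 and -0.034 to 0.14 for full-length Ntrk2 minus A_55_P2006792 and minus A_65_P04961, and -0.015 to 0.10 for the truncated Ntrk3 pair. In FA against PR they were -0.022 to 0.062 for Ngfr, -0.033 to 0.091 for Ntrk2 A_55_P2006792, -0.019 to 0.031 for Sort1 A_51_P517145, -0.0025 to 0.093 for Ntrk3 A_55_P2006808 minus A_66_P118329, and -0.034 to 0.0052 for the full-length Ntrk3 pair.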

Other observations

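The other marker lists are given as values, beside 30.0% of all probes on the array that passed in PR against CD and 34.4% in FA against CD. Of 10 oligodendrocyte probes 4 were higher and 1 lower in PR, and 2 higher and 1 lower in FA. Of 11 microglia probes 3 were higher and 3 lower in PR, and 3 higher and 2 lower in FA, and of 6 endothelium probes 3 were higher in each group and 1 was lower in FA. Choroid plexus had 1 of 11 probes higher in PR and 1 lower in FA, and meninges and fibroblasts 1 of 7 higher in PR and 1 lower in FA. No red blood cell probe of 5 passed. Of 7 sensory ganglion probes, only Scn11a, a sodium channel gene, passed, with a fall of 0.32 in PR and 0.68 in FA. Of 9 pituitary probes, Gh and Prl were lower in both groups and Ghrhr higher in FA.

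Among the members themselves, the deviations from the group means ran most nearly together for full-length Ntrk2 with full-length Ntrk3 (r = 0.86), where FA replicate 3 was the lowest FA array on both probes. Bdnf ran with Vgf at r = 0.77 over the 12 arrays. The lowest r was -0.68, between truncated Ntrk3 A_55_P2006808 and truncated Ntrk2 A_65_P04961. Those correlations are descriptions of arrays that share slides.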
